A study of Mus musculus with 8 samples.

Results

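This report describes 8 genes of oxysterol metabolism and of the liver X receptor (LXR) pathway in sorted hepatic stellate cells, which store vitamin A beside the sinusoids of the liver. They are Cyp7b1, Ch25h, Cyp27a1, Nr1h2, Nr1h3, Abca1, Abcg1 and Gpr183. The genes were taken by symbol, from probe sets that the platform annotation maps to exactly 1 gene. Cyp7b1 was chosen by its higher log2 level in the reverted arrays. The others were chosen for their role in the pathway, with earlier results of these data known. Of the 8 genes, 7 were measured among 19938 genes in all, each by 1 probe set. Nr1h2, which encodes LXR-beta, is not analysed here because the annotation used lists no probe set for it.

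The cells came from male Balb/c mice and were enriched on a density gradient, sorted by retinoid autofluorescence and lysed directly after the sort. The quiescent group (4 arrays) came from normal mice of 18 weeks. The reverted group (4 arrays) came from mice that had been given 4 injections of carbon tetrachloride (CCl4), a hepatotoxin, at 0.5 µl per g body weight and 2 injections a week, followed by 45 days of rest. The labels state an age of 18 weeks for both groups in one place and of 16 weeks for the reverted mice in another. They do not say whether an array holds 1 mouse or a pool, so p-values reflect only how these arrays scatter, and that scatter may be technical. Stellate cells taken during the injury are not analysed here, so all values below compare rested with uninjured animals.

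Oxysterols are oxidised forms of cholesterol. Ch25h and Cyp27a1 add a hydroxyl group to the cholesterol side chain, and Cyp7b1 hydroxylates the sterol ring of their products, a step that leads towards bile acids in the liver and removes side-chain oxysterols in other tissues. Side-chain oxysterols activate the LXR nuclear receptors, which switch on sterol exporters such as Abca1 and Abcg1, and they restrain the SREBP2 programme of cholesterol synthesis. The combined action of Ch25h and Cyp7b1 also yields the ligand of Gpr183 (EBI2), a receptor that guides the migration of immune cells.

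The data are log2 probe set levels from a whole-transcript gene array, with array medians between 7.66 and 7.74. A level belongs to its own probe set, so levels of different genes are compared only roughly, by their place on the scale of the arrays. The stellate markers Lrat, which esterifies retinol, and Des, an intermediate filament gene, lay between 13.99 and 14.16 and between 12.73 and 12.91, near the top of the scale. All 13 measured stellate markers had a lower mean in reverted cells (median log2 change -0.03), and Gfap, a glial filament gene of quiescent stellate cells, fell by 0.49 (limma adjusted p = 0.0182, and 0.0703 without reverted array 4, 0.0916 with the hepatocyte and 0.053 with the macrophage covariate). Ngfr (-0.20) and Colec11 (-0.08) also lay lower in each reverted array than in each quiescent array but did not pass the test. Of 14 macrophage markers 5 had a higher mean and 0 were called. The Kupffer cell markers Clec4f (6.89 to 7.16) and Vsig4 (5.77 to 5.96) lay low in every array, while Lyz2 (0.59, limma adjusted p = 0.129) lay higher in each reverted array and Cd68 had a log2 change of 0.38 (limma adjusted p = 0.341). All 16 measured hepatocyte markers had a higher mean in the reverted group (median log2 change 0.42), and 0 of them passed the test. Their mean level ran from 7.89 to 8.83 in quiescent and from 8.54 to 9.04 in reverted arrays. Quiescent array 4 had the lowest array weight (0.584).

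Cyp7b1 mRNA was 2.99-fold higher in reverted than in quiescent cells, a difference that was not tested. None of the 6 tested genes passed the test. In the quiescent arrays 1 to 4 the Cyp7b1 log2 level was 7.34, 7.45, 7.63 and 8.19. In the reverted arrays 1 to 4 it was 9.25, 9.10, 9.02 and 9.57. Every reverted array lay above every quiescent array, as in 4.64% of all genes, and the gap between the nearest arrays of the groups, quiescent 4 and reverted 3, was 0.82 log2 units or 1.77-fold. The group means were 7.65 ± 0.38 and 9.24 ± 0.24 (SD, n = 4), a log2 difference of 1.58 (SE 0.18). This was rank 4 among the rises of all genes. Because Cyp7b1 was chosen for this difference, it is given as a description with no test. In bulk samples, a change in the share of cells that carry a transcript and a change in its amount per cell cannot be told apart.

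**Figure D1:**
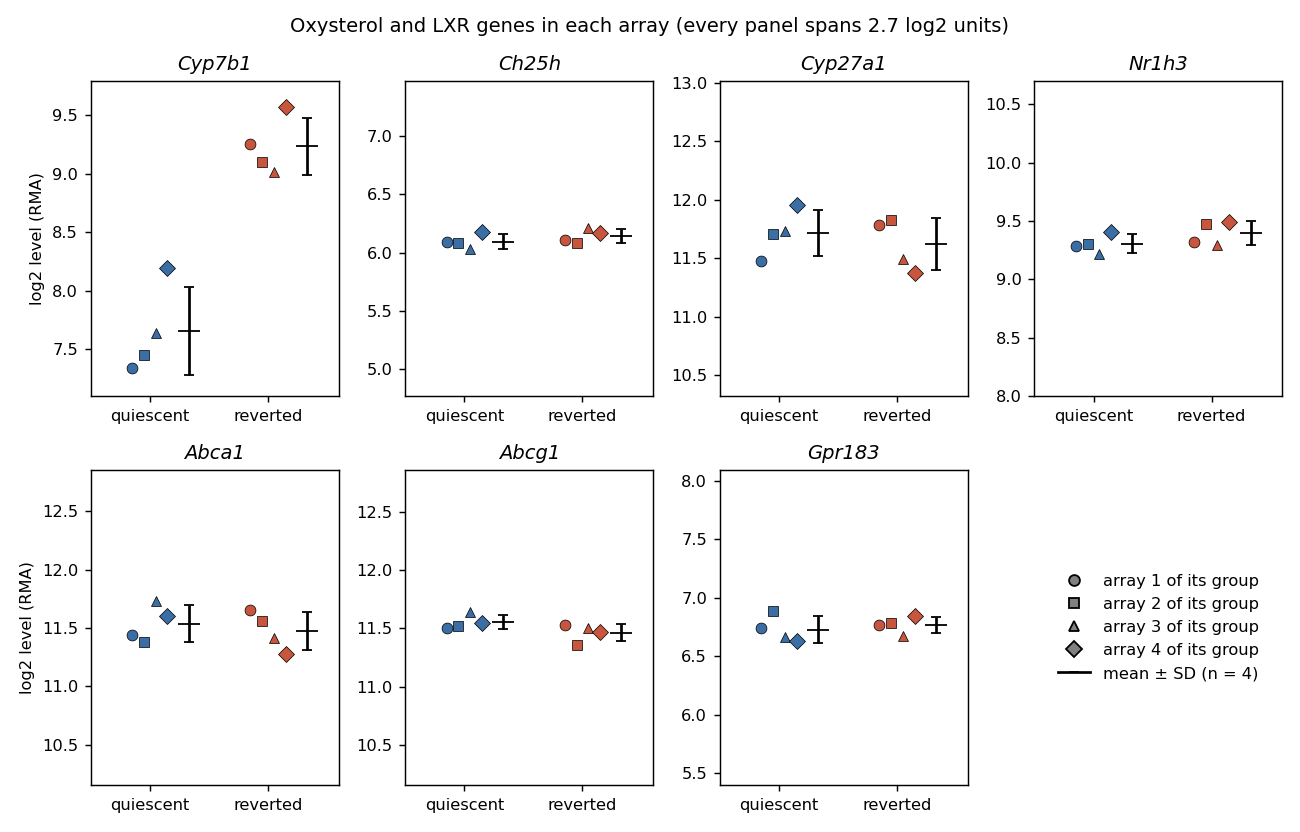
Log2 level (vertical axis, RMA) of each measured gene in the 4 quiescent (blue) and 4 reverted (red) arrays, with the group mean ± SD beside the points and the same span in every panel. Cyp7b1 separates the groups by 0.82 log2 units, while the arrays of the other 6 genes overlap.

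Some markers of other liver cells had higher means in the reverted group, as Cyp7b1 had. Hepatocytes also express Cyp7b1, and the means of their 16 markers were higher in the reverted group, with overlapping ranges (7.89 to 8.83 and 8.54 to 9.04). In the list of mesothelium and portal fibroblasts 2 of 16 markers rose, the transcription factor Wt1 (2.62-fold, limma adjusted p = 0.00801) and the TAM receptor ligand Gas6 (1.81-fold, limma adjusted p = 0.0194), while 12 had a lower mean and the list median was -0.09. The call of Wt1 was lost with the hepatocyte covariate (0.0558). That of Gas6 was lost with each of the 3 marker covariates (0.0541 to 0.0947) and without quiescent array 1 (0.0663) or reverted array 3 (0.0634) or 4 (0.0713). The mean of this list ran from 7.64 to 7.76 in quiescent and from 7.74 to 7.93 in reverted arrays. Of 12 sinusoidal endothelial markers 10 had a higher mean (median 0.22) and 0 were called, with Clec4g at 0.50 (limma adjusted p = 0.063). Their mean ran from 8.10 to 8.53 in quiescent and from 8.26 to 8.83 in reverted arrays. When limma took the mean of the hepatocyte markers as a covariate, the Cyp7b1 difference was 1.73, and with the macrophage marker mean it was 1.65. It was 1.50 with the mean of immediate early genes, which respond to cell handling. The part of these other cells in the Cyp7b1 difference was not tested. Within the quiescent group the Cyp7b1 arrays spanned 0.85 log2 units, and 0.56 of these lay between array 4 and the next highest. Without quiescent array 4 the difference was 1.76, and without reverted array 4, the highest array, it was 1.47.

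**Figure D2:**
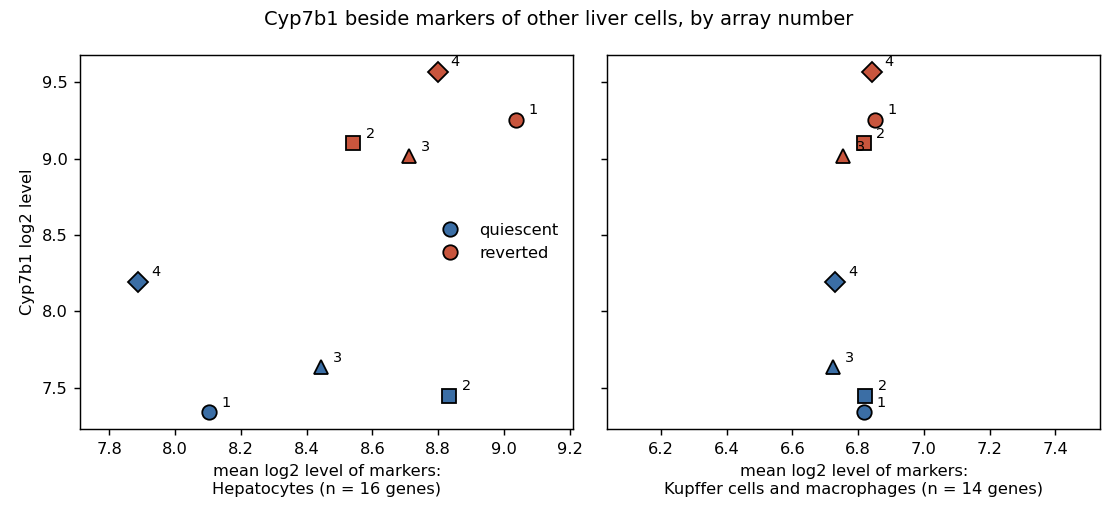
Cyp7b1 log2 level (vertical axis) against the mean log2 level of 16 hepatocyte markers (left) and of 14 Kupffer cell and macrophage markers (right), 1 point per array, numbered by array within its group. The hepatocyte marker means run from 7.89 to 8.83 in quiescent and from 8.54 to 9.04 in reverted arrays, and the Cyp7b1 levels from 7.34 to 8.19 and from 9.02 to 9.57.

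The enzymes that make the substrates of Cyp7b1 did not pass the test. Ch25h, the cholesterol side-chain hydroxylase induced by interferon and endotoxin in macrophages, was at 6.09, 6.08, 6.03 and 6.18 in quiescent arrays 1 to 4. In reverted arrays 1 to 4 it was at 6.11, 6.09, 6.21 and 6.17. The groups overlapped, and all 8 arrays fell within 0.19 log2 units. The log2 change was 0.05 (95% interval -0.06 to 0.15, limma adjusted p = 0.609), and 0.08 without quiescent array 4. Ch25h lay at level percentile 17.0 of all genes, where a change may be understated.

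Cyp27a1, the mitochondrial sterol side-chain hydroxylase, varied more within the groups than between them. Its quiescent arrays 1 to 4 stood at 11.48, 11.71, 11.73 and 11.95. Its reverted arrays 1 to 4 stood at 11.79, 11.82, 11.49 and 11.37. The highest value belonged to quiescent array 4 and the lowest to reverted array 4. The log2 change was -0.10 (95% interval -0.38 to 0.18, limma adjusted p = 0.705), so the interval runs from 0.771-fold to 1.13-fold. Leaving out 1 array gave -0.18 (without quiescent 1) to -0.017 (without reverted 4), with -0.020 without quiescent array 4.

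Nr1h3 encodes LXR-alpha, the LXR of liver, fat and macrophages. Its level in quiescent arrays 1 to 4 was 9.29, 9.31, 9.21 and 9.41, and in reverted arrays 1 to 4 it was 9.32, 9.47, 9.30 and 9.49. The groups overlapped, although the highest 2 arrays were both reverted. The log2 change was 0.09 (95% interval -0.05 to 0.23, limma adjusted p = 0.473), which reaches 1.17-fold at most.

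Abca1 and Abcg1 export cholesterol from cells and are among the LXR targets most often used as a readout of receptor activity. The promoter table of RefSeq (build GRCm38.p6) held 6 of the 8 genes, in 7 windows. Cyp7b1 and Abcg1 were not among them. The 250 bases before the start of each gene were searched on both strands for the LXR response element, 2 copies of AGGTCA spaced by 4 bases, with up to 3 mismatches in the 12 fixed letters. Abca1 held a match, from position -67 to -52 before its start and on the strand opposite to the gene, and it is shown because Abca1 is the receptor readout here. In the pair that follows, capitals mark the hexamers of the element and lower case its spacer.
Motif searched: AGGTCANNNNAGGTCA
Abca1 match: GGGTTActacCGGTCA

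The match has 2 mismatches in the first hexamer and 1 in the second. It lies in this window, chr4:53159896-53160145 on the minus strand, printed 5′ to 3′ along the gene with the matched stretch, which here reads as the reverse complement of the element, in capitals.
Abca1 promoter: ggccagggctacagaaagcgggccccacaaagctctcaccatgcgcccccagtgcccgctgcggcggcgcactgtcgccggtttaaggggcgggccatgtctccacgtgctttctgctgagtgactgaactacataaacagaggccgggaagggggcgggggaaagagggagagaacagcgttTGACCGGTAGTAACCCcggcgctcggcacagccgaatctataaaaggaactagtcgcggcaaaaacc

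At this number of mismatches, 18.5% of the 32851 windows of the table held a match, so a match is a description of the letters and no sign of binding. The windows of Ch25h, Cyp27a1, Nr1h2, Nr1h3 and Gpr183 held 0 matches.

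The Abca1 transcript did not pass the test. Quiescent arrays 1 to 4 were at 11.44, 11.38, 11.73 and 11.60, and reverted arrays 1 to 4 at 11.65, 11.56, 11.41 and 11.27. As for Cyp27a1, reverted array 4 was the lowest of all 8 and the groups overlapped. The log2 change of Abca1 was -0.06 (95% interval -0.28 to 0.16, limma adjusted p = 0.769), or 0.822-fold to 1.11-fold. Its sign turned, to values of 0.0022 and 0.0040, without quiescent array 3 or reverted array 4.

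Abcg1, the exporter that loads cholesterol onto HDL particles, stood at 11.51, 11.52, 11.64 and 11.55 in quiescent arrays 1 to 4. In reverted arrays 1 to 4 it stood at 11.52, 11.36, 11.50 and 11.47. Only reverted array 1 reached into the quiescent range, by 0.019 log2 units. The log2 change was -0.09 (95% interval -0.20 to 0.02, limma adjusted p = 0.386), the smallest p among the tested genes.

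Gpr183 did not pass the test either. Its quiescent arrays 1 to 4 were at 6.74, 6.88, 6.66 and 6.63, and its reverted arrays 1 to 4 at 6.76, 6.78, 6.67 and 6.84. The highest and the lowest array were both quiescent. The log2 change was 0.04 (95% interval -0.10 to 0.18, limma adjusted p = 0.784). Leaving out 1 array gave 0.0039 (without quiescent 4) to 0.09 (without quiescent 2). Its sign turned with the hepatocyte (-0.045) or macrophage (-0.032) marker mean as a covariate. Gpr183 lay at level percentile 29.2, and markers of the dendritic cells and lymphocytes that carry this receptor had a median log2 change of -0.05, with 0 of 13 called. Quiescent and reverted arrays overlapped in the mean of these markers (6.73 to 6.89 and 6.75 to 6.83).

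Among the 6 tested genes, 0 were called changed at an adjusted p under 0.05 in limma, and 0 had an unadjusted p under 0.05. Over all genes 0.712% were called, 0.527% higher (105 genes) and 0.186% lower (37 genes) in reverted cells. Cyp7b1 fixed its own direction by how it was chosen and is not read against these shares. With quantile normalization the split was 126 higher and 90 lower, and with median centring it was 112 and 63. None of the 6 separated the groups, against 8.73% of all genes, while 3 means were higher and 3 lower. Their median log2 change was -0.01, beside -0.01 over all genes. The 95% intervals of the 6 genes together ran from 0.771-fold to 1.17-fold.

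**Figure D3:**
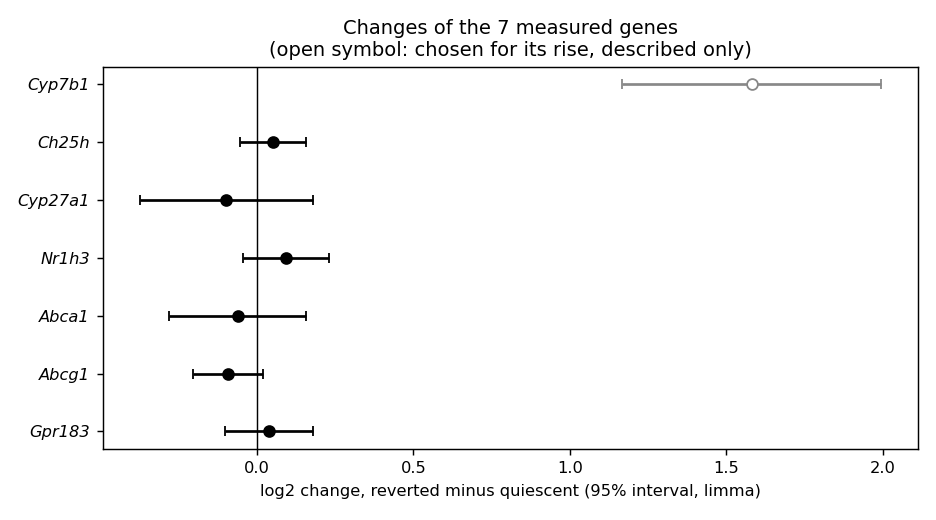
Log2 change, reverted minus quiescent (horizontal axis), with the 95% interval from the limma fit (n = 4 arrays per group) for the 7 measured genes. The 6 tested genes (filled) lie between -0.10 and 0.09 with intervals that include 0. Cyp7b1 (open, described only) lies at 1.58, and its interval is no test because the gene was chosen for its rise.

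The genes around the pathway were read from 6 further lists, with 104 distinct genes measured of 115. In limma 0 rose and 0 fell, beside 0.712% of all genes called. An unadjusted p under 0.05 was found for 25. The share of all genes at this limit was not computed, so this count is not read as a result about the lists. The groups did not overlap for 15 of the 104, against 8.73% of all genes. Of these 15, 5 were among the 21 other LXR targets and 5 among the 10 genes of esterification, hydrolysis and export. Over the 104 genes, means were higher in reverted cells for 63 and lower for 41, with a median log2 change of 0.02.

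Of 18 other enzymes of oxysterol and bile acid synthesis, 0 rose, 0 fell, and 11 had a higher mean, with a median log2 change of 0.01. Over the 20 alternatives this median ran from -0.04 to 0.12. The smallest p values were those of Scp2, a peroxisomal thiolase and sterol carrier (8.97 ± 0.12 to 9.16 ± 0.06, SD, limma adjusted p = 0.195), and Hsd11b1 (13.22 ± 0.04 to 13.34 ± 0.07, SD, limma adjusted p = 0.26). Hsd11b1 reduces cortisone and also the ring-oxidised 7-ketocholesterol. Named after its values were seen, Cyp7a1, the hepatocyte enzyme of the same family as Cyp7b1 and the rate-limiting step of bile acid synthesis, stood at 5.70 ± 0.14 and 5.83 ± 0.14 (SD, limma adjusted p = 0.455). Hsd3b7, which acts on the products of both enzymes and was also named after its values were seen, had a log2 change of 0.01 (SE 0.05, limma adjusted p = 0.908).

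Among 14 LXR partners and coregulators 0 rose and 0 fell, and 9 had a higher mean, with a median of 0.03. The coactivator Ncoa3 (0.17, SE 0.06, limma adjusted p = 0.237) and Prmt3, an arginine methyltransferase reported to act with LXR-alpha (0.17, SE 0.07, limma adjusted p = 0.299), had the smallest p values. The retinoid X receptor genes, whose products form dimers with LXR, had log2 changes of -0.04 (Rxra), -0.04 (Rxrb) and 0.02 (Rxrg), and were named after their values were seen.

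Of 21 other LXR targets, 0 rose and 0 fell. Means were higher for 9 and lower for 12, with a median of -0.01. The apolipoprotein gene Apoc1 had means of 11.02 ± 0.10 in quiescent and 10.46 ± 0.28 (SD) in reverted cells, with a log2 change of -0.56 (SE 0.12, limma adjusted p = 0.0948). Without reverted array 1 the change of Apoc1 was -0.68 and passed (limma adjusted p = 0.0214). Smpdl3a, a phosphodiesterase gene, had a change of -0.21 (SE 0.05, limma adjusted p = 0.0969) and passed only with quantile normalization (-0.24, 0.0438). Also named after its values were seen, Scd1, the stearoyl-CoA desaturase, had the highest change of this list at 0.46 (SE 0.11, limma adjusted p = 0.103). Mylip, which encodes the LXR-induced ligase that degrades the LDL receptor, had a change of -0.14 (limma adjusted p = 0.46) and was named likewise.

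In the list of 24 oxysterol binding and sterol transfer proteins 0 rose and 0 fell, and 17 had a higher mean, with a median of 0.03. Osbpl3, an oxysterol binding protein relative, had a quiescent mean of 9.19 ± 0.08 and a reverted mean of 9.66 ± 0.27 (SD), a difference of 0.47 (SE 0.12, limma adjusted p = 0.124). It passed without reverted array 1 (0.58, limma adjusted p = 0.0478). Npc2, the lysosomal cholesterol carrier, had a log2 change of 0.10 (SE 0.04, limma adjusted p = 0.294).

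Of 10 genes of sterol esterification, hydrolysis and other export, 0 rose, 0 fell, and 8 had a lower mean, with a median of -0.07. Scarb1, the HDL receptor, had quiescent and reverted means of 10.87 ± 0.06 and 10.61 ± 0.07 (SD), a log2 change of -0.26 (SE 0.05, limma adjusted p = 0.0516). It passed with quantile normalization (0.0175), with median centring (0.034), without the lower 50% of genes by level (0.0456) and with an intensity trend and robust variance (0.042). Lipa, the lysosomal acid lipase, had a change of -0.14 (SE 0.04, limma adjusted p = 0.158). The highest change in this list, 0.72 (limma adjusted p = 0.169), was that of Apoa1, which is also a hepatocyte marker and passed only with the immediate early gene covariate (0.93, limma adjusted p = 0.0488).

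The SREBP2 targets, genes of cholesterol synthesis that oxysterols repress, had 17 measured members, of which 0 rose and 0 fell. Means were higher in reverted cells for 15 of the 17, beside 46.4% of all genes, and the median log2 change was 0.14, beside -0.01. Sqle, the squalene epoxidase, went from 7.58 ± 0.03 to 7.74 ± 0.05 (SD), a change of 0.17 (SE 0.04, limma adjusted p = 0.108). Msmo1, the sterol-C4-methyl oxidase, went from 9.03 ± 0.16 to 9.33 ± 0.08 (SD), a change of 0.30 (SE 0.08, limma adjusted p = 0.133). Without quiescent array 4, 2 members passed, Msmo1 (0.37, limma adjusted p = 0.034) and the isopentenyl diphosphate isomerase Idi1 (0.35, limma adjusted p = 0.0394). Hepatocytes make cholesterol too, and their markers had a median log2 change of 0.42. Over the 20 alternatives, the hepatocyte marker covariate among them, the median of this list ran from 0.08 to 0.17. The part of hepatocytes in the values of this list was not tested.

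**Figure D4:**
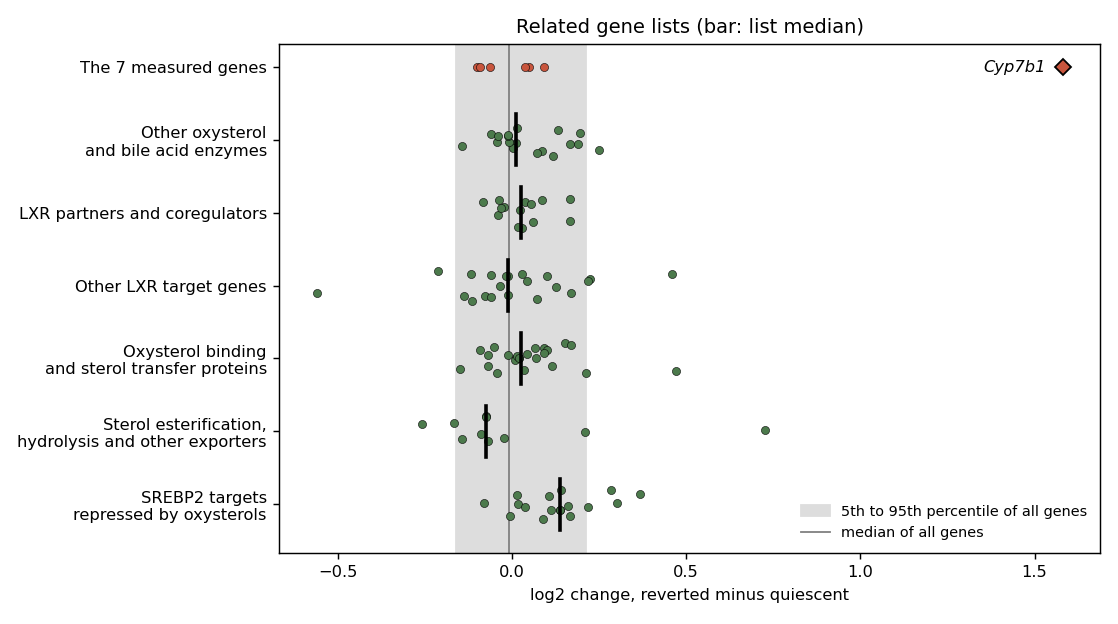
Log2 change, reverted minus quiescent (horizontal axis), of the 7 measured genes (top row, Cyp7b1 as a diamond) and of the genes of 6 related lists, with the list median as a bar and the range from the 5th to the 95th percentile of all genes in grey. Cyp7b1 stands at 1.58, and the list medians lie between -0.07 and 0.14.

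The genes whose profile over the 8 arrays was most like that of Cyp7b1 were found by the root mean square difference of log2 values, each gene centred on its own mean. They were Dpt, encoding the matrix protein dermatopontin (0.23 log2 units), Lgi2 (0.28), Cacna1c, an L-type calcium channel subunit (0.30), Clic5, an intracellular chloride channel protein (0.31), and the unconventional myosin gene Myo1d (0.31). Each of them separates the groups, as 8.73% of all genes do in either direction. This follows largely from the choice of genes like Cyp7b1, which was itself chosen for its rise. Dpt (9.65), Cacna1c (7.53) and Myo1d (9.30) had their highest quiescent value in array 4, as Cyp7b1 had (8.19). Quiescent array 4 was not apart from arrays 1 to 3 for Lgi2 (7.50 against 7.45 to 7.53) or Clic5 (7.73 against 7.58 to 7.75). Among the reverted arrays, Cyp7b1, Lgi2 and Cacna1c were highest in array 4, Dpt and Clic5 in array 1, and Myo1d in array 2.

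**Figure D5:**
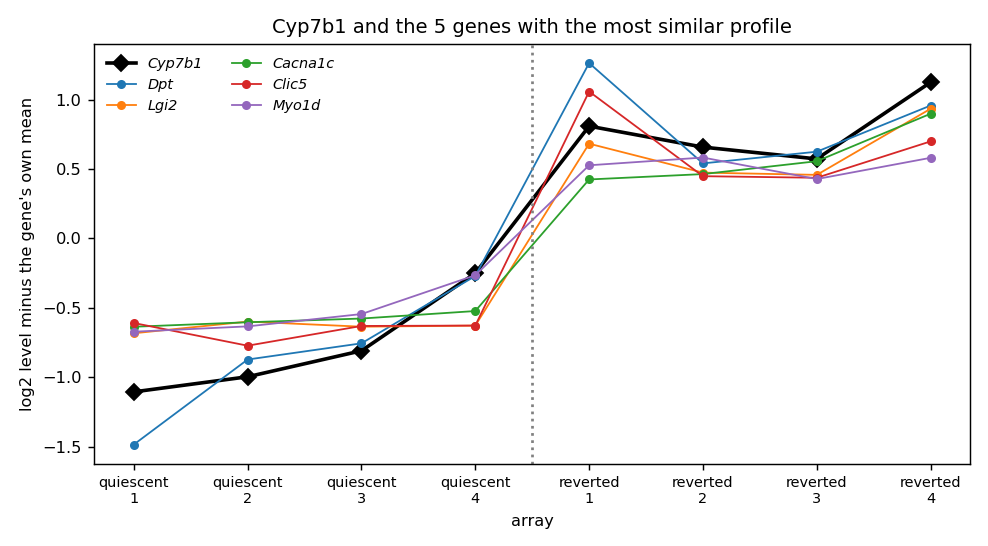
Log2 level minus the gene's own mean (vertical axis) in the 8 arrays (horizontal axis) for Cyp7b1 (black) and the 5 genes with the smallest root mean square difference from it. Lines only link the values of 1 gene. In quiescent array 4, Cyp7b1 (8.19) and Dpt (9.65) have their highest quiescent value.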

How the data were processed

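Gene expression was measured in 8 arrays of sorted mouse stellate cells. The deposited values are log2 probe set levels that the authors made with RMA (background correction, normalization across arrays and probe summary), per the submitters' processing notes. The sources used here do not give the RMA settings or the genome build. The annotation gives 21789 of 35556 probe sets 1 gene symbol, 1621 several and lists no gene for 12146. Entrez identifiers of 21698 matched RefSeq (GRCm38.p6), and 0 symbols changed. The probe set with the highest mean stood for each of 19938 genes, with no filter on dim genes.

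Groups were compared with lmFit and eBayes in limma 3.58.1 (R 4.3.3), 2-sided, without covariates, with Benjamini-Hochberg adjustment over all genes. Calls were made at an adjusted p under 0.05. Errors are SE from the fit or SD over arrays, with precision limited by the 4 arrays per group. On simulated data for this comparison (19938 genes, 200 changed) the fit recovered 83.6% of genes changed by 0.58 log2 units and 100% of those changed by 1. The simulated noise was normal and independent for each gene and array. It held no variation shared between genes and no arrays of lower quality, so recovery in the real arrays may be lower. Tables and plots were made with Python 3.11.15, pandas 2.3.3 and matplotlib 3.10.9.

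The members, lists and tests were chosen with earlier results of these data known. All members are named, and from each related list the called genes or, with none called, the 2 with the smallest p. Named in addition were the 5 genes nearest to Cyp7b1, leaving out predicted genes. Alternatives were quantile normalization, median centring, leaving out the lowest 25% or lower 50% of genes, the mean of probe sets, all probe sets, array weights, an intensity trend with robust variance, the replicate number as a block, 3 marker means as covariates and leaving out each array.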

Additional observations from a re-analysis of the deposited data

Results flagged for a closer look

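In Npc2, the lysosomal cholesterol carrier, reverted array 1 lay at a log2 level of 10.63, apart from the other 3 reverted arrays at 10.55 to 10.56. Its gap to the nearest of them was 0.849 of the range of its group, above Dixon's critical value for 4 samples. It was the only one of 54 groups of 4 arrays checked that passed this limit, and chance alone gives about 1 in 20.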

How the results depend on the processing

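Cyp7b1 kept its direction under all 20 alternatives, with a log2 change between 1.47 and 1.76, both bounds from leaving out 1 array (reverted 4 and quiescent 4). The kept direction is no support for the rise, because Cyp7b1 was chosen for it in these same arrays. Its groups do not overlap, so leaving out 1 array could not turn its sign. The 6 tested genes passed the test under 0 of the alternatives. Their sign held for Ch25h, Cyp27a1 (-0.18 to -0.017), Nr1h3 and Abcg1. It turned for Abca1 without quiescent array 3 (0.0022) or reverted array 4 (0.0040), within a leave-one-out range of -0.12 to 0.0040. It turned for Gpr183 with the hepatocyte (-0.045) or macrophage (-0.032) covariate. Ch25h is among the lowest 25% of genes and Gpr183 among the lower 50%, so these filters gave no value for them. Of the 104 genes of the related lists, 7 passed under at least 1 of 7 alternatives, each named above.

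The count of called genes over the whole table, 142, was 216 with quantile normalization, 306 with array weights, 72 with the hepatocyte, 92 with the macrophage and 73 with the immediate early gene covariate. Leaving out 1 array gave 54 to 247, with 73 without quiescent array 1, 247 without quiescent array 4, 59 without reverted array 3 and 54 without reverted array 4. With the replicate number as a block it was 63. No pairing by replicate number was seen. Deviations of same-numbered arrays correlated between -0.15 and 0.08 across genes, and 0 of 4 quiescent arrays matched their own number best. With so few arrays this cannot exclude a pairing. None of the tested genes was called with or without the block. The markers Gfap (limma adjusted p = 0.0867), Wt1 (0.0554) and Gas6 (0.0855), run after seeing the data, lost their calls under it. The median of all genes moved by under 0.1 log2 units in each setting. Levels of dim genes, Ch25h and Gpr183 among them, may hide small changes, and signal over background was not used here.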
